A study of Homo sapiens with 4 samples.

Results

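CEACAM1, CEACAM5, CEACAM6 and CEACAM7 are 4 of the carcinoembryonic antigen-related cell adhesion molecule genes, and they were read on arrays of HT29 and Colo205, both human colon cancer lines. The genes were taken by symbol. Every probe set that the platform annotation names for one of them was used, 12 probe sets in all, and each of the 12 names a single gene. The array names 19775 genes by a probe set of their own, of which these are 4. The series compared each parental line with a derivative grown in rising amounts of the BRAF inhibitor PLX4720 until it resisted the drug, labelled HT29RC and Colo205RC. All cultures grew in medium with 10% serum, and both derivatives spent 24 h in drug-free medium before harvest. There was 1 array for each line and status, 4 in all, and nothing says that the cultures were independent, so a p-value here measures only the spread between these arrays. The series' text calls the derivatives clones without saying how many cells founded each.

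CEACAM proteins are cell-surface glycoproteins of the immunoglobulin superfamily that bind to one another, within and between members, and so hold epithelial cells together. CEACAM5, the carcinoembryonic antigen measured in blood to follow colorectal cancer, and its close relatives CEACAM6 and CEACAM7 are tied to the membrane by a glycosylphosphatidylinositol (GPI) anchor. CEACAM1 spans the membrane, and its long splice forms carry inhibitory tyrosine motifs in the cytoplasmic tail that recruit the phosphatases SHP-1 and SHP-2. In the normal colon CEACAM5, CEACAM6 and CEACAM7 are found on mature surface colonocytes, and in colorectal tumours CEACAM5 and CEACAM6 are commonly abundant while CEACAM7 is commonly lost.

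The genes lie in one family cluster on chromosome 19, and their start-site regions are similar enough to be set side by side. The RefSeq table of build GRCh38.p14 held a promoter for all 4, each running from 250 bases before to 50 bases after the start. They are printed because the genes of the first pair, CEACAM5 and CEACAM6, were those that differed most between resistant and parental cells. CEACAM5 is at chr19:41708376-41708675 and CEACAM6 at chr19:41755280-41755579 on the plus strand, CEACAM7 at chr19:41688221-41688520 and CEACAM1 at chr19:42528432-42528731 on the minus strand. Each is given 5′ to 3′ on its gene's own strand, and the capitals mark the E-box CACGTG of CEACAM5 and the 6 bases aligned with it in the others.
CEACAM5: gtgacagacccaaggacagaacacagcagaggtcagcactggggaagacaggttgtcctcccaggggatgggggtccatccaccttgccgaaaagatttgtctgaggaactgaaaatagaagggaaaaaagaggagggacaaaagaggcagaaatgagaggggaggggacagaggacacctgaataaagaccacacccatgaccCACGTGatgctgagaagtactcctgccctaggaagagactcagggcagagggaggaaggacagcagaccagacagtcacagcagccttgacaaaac
CEACAM6: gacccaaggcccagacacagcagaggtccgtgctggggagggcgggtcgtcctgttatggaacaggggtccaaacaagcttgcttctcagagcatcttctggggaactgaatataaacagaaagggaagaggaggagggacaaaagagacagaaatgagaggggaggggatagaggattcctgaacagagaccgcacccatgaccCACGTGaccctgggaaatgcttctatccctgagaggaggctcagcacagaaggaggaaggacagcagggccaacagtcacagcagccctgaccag
CEACAM7: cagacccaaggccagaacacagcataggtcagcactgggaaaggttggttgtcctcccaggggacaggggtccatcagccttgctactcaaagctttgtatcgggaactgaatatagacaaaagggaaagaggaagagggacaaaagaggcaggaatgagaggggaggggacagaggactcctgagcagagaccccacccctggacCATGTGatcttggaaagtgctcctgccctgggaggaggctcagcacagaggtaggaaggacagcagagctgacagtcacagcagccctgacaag
CEACAM1: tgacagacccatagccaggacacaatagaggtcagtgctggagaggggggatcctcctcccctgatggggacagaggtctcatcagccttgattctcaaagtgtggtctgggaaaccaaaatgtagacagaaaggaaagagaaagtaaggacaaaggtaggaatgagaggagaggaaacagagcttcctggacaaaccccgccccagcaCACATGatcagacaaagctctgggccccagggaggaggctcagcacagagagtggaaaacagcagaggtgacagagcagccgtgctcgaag

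CEACAM5 and CEACAM6 both read CACGTG there, 46 and 45 bases before the start. The aligned bases are CATGTG in CEACAM7 and CACATG in CEACAM1. CACGTG, which is its own reverse complement and is the core bound by the USF factors, was present in 7.43% of 27305 RefSeq promoters of this length, and it was chosen after these sequences had been read. Of 10 numbered CEACAM genes in the promoter table, with 11 starts, CEACAM5 and CEACAM6 were the 2 that held it. The letters alone do not show that a factor binds. Over the whole window CEACAM5 was nearest to CEACAM7, with 84.7% of 294 aligned bases identical, against 78.8% of 292 for CEACAM6 and 70.7% of 287 for CEACAM1. Among other motifs searched on both strands, the GC box GGGCGG (44.6% of promoters) occurred once in CEACAM6 and once in CEACAM1. Outside the 4 printed windows it also occurred once in CEACAM8. The CDX site TTTAT (35.8%) occurred once in CEACAM5 and once in CEACAM6, and also once in CEACAM8, so it was not particular to the first pair. The AP-1 site TGANTCA (7.76%) and the sequence GTCTAG (5.81%), searched for SMAD factors, were in none of the 4 printed windows. Shorter SMAD sequences were not searched.

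CEACAM5 was higher in the resistant cells of both lines. Its probe set 201884_at stood at 9.10 in parental HT29, 11.96 in resistant HT29, 6.84 in parental Colo205 and 10.00 in resistant Colo205, as log2 expression values summarised and normalised by the authors. Both resistant arrays lay above both parental ones, an order that so few arrays can also show without an effect of status. The difference, resistant minus parental, was 2.87 in HT29, or 7.29-fold, and 3.16 in Colo205, or 8.96-fold. Among the 13651 genes whose highest value reached 5.73, the median of the whole table, it held place 32 from the top in HT29 and place 10 in Colo205. Readings under 5.73 were not shown to lie above background. In bulk RNA such as this, more of a transcript per cell and more cells that carry it cannot be told apart.

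**Figure D1:**
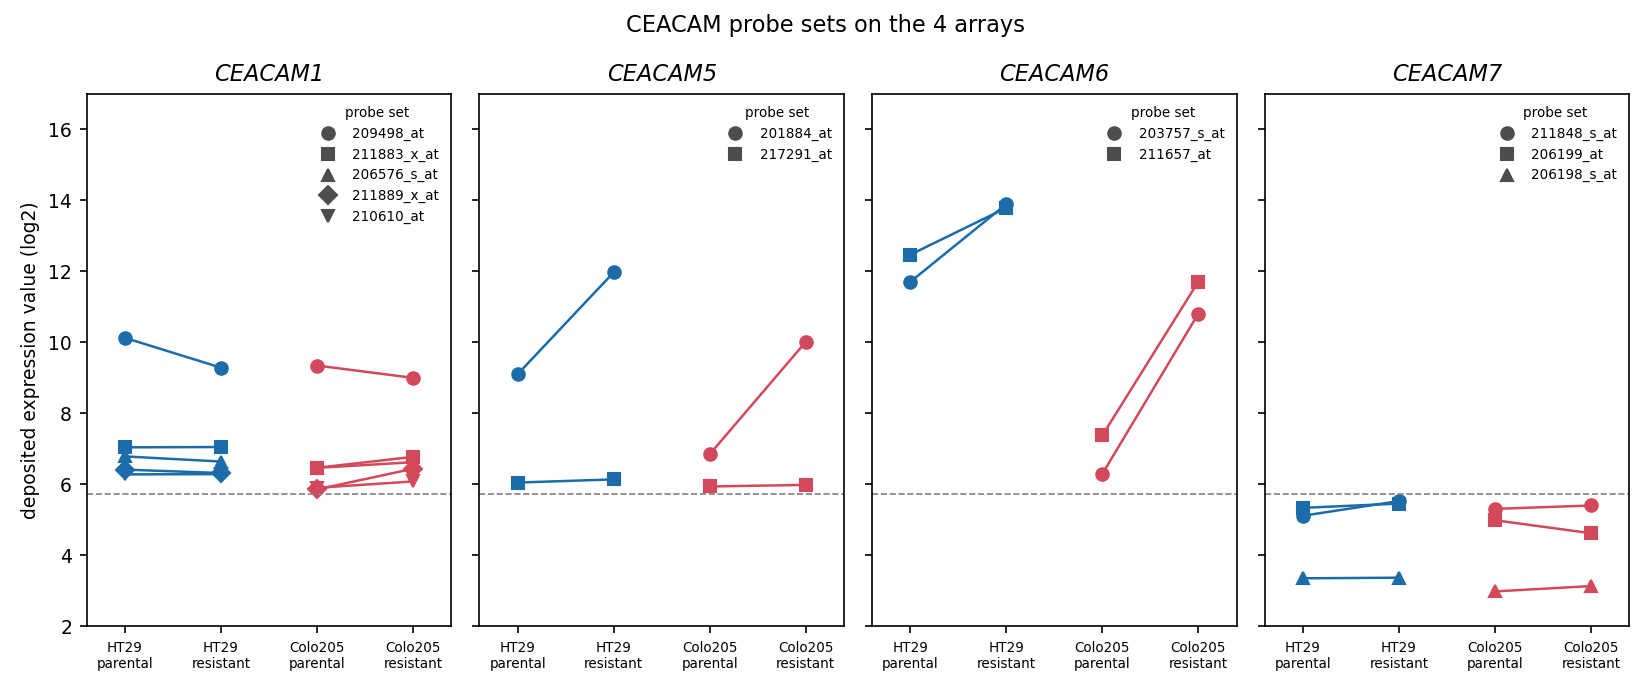
Deposited log2 values of the 12 CEACAM probe sets (vertical axis) on the 4 arrays, 1 panel a gene, with a line joining parental and resistant HT29 (blue) and parental and resistant Colo205 (red), 1 array a point. The CEACAM6 probe sets and 1 of the 2 CEACAM5 probe sets are 2-fold or more higher in both resistant lines, and every CEACAM7 point lies under the dashed filter value of 5.73.

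The other CEACAM5 probe set, 217291_at, gave 6.04 before and 6.13 after resistance in HT29, then 5.93 and 5.98 for Colo205. The resistant array was the higher of each pair and HT29 read above Colo205, but by little: the differences were 0.09 and 0.04, and the whole range over the arrays was 0.20 against 5.12 in 201884_at. It lay between percentiles 54.1 and 57.0 of its array's probe sets. The annotation assigns both probe sets to CEACAM5 alone, and which stretch of the transcript each reads was not analysed here.

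CEACAM6 was higher in both resistant lines by both of its probe sets, and the difference was larger in Colo205. Probe set 211657_at read 12.46 and 13.78 in parental and resistant HT29 and 7.37 and 11.70 in parental and resistant Colo205. For 203757_s_at the readings were 11.70 and 13.89 in HT29 and 6.29 and 10.80 in Colo205. The low array was parental Colo205 in both, and resistant Colo205 stayed below parental HT29, by 0.76 and 0.90. The differences were 1.32 and 2.19 in HT29, which are 2.50-fold and 4.56-fold, and 4.33 and 4.51 in Colo205, which are 20.1-fold and 22.9-fold. In Colo205 only 4 genes had a larger difference than 211657_at, which ranked 252 in HT29.

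The size of the HT29 difference in CEACAM6 thus depended on the probe set read. The resistant HT29 readings lay at percentiles 99.59 and 99.65 of their array, near the table's highest value of 14.88. Whether such bright readings are compressed was not tested. At the other end, parental Colo205 stood at percentile 71.4 by 211657_at and 59.6 by 203757_s_at. The Colo205 difference exceeded the HT29 one by 3.01 and 2.33 in the respective probe sets. With 1 array for each line and status this gap between the lines has no test.

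CEACAM1 did not follow them. Its brightest probe set, 209498_at, stood at 10.12 in parental HT29, 9.28 in resistant HT29, 9.34 in parental Colo205 and 8.99 in resistant Colo205. The resistant array was the lower of each pair, by 0.84 in HT29, or 1.79-fold, and by 0.35 in Colo205, or 1.27-fold. Resistant HT29 lay within 0.06 of parental Colo205, so the groups were barely apart. That both lines lie on the lower side was true of 30.1% of the genes and a 2-fold decrease in both of 0.234%, a size CEACAM1 did not reach.

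The other 4 CEACAM1 probe sets lay between 5.85 and 7.04 and gave no such decrease. Their HT29 differences ran from -0.14 to 0.01, those of Colo205 from 0.16 to 0.58. The largest of these was that of 211889_x_at, which read 5.85 in parental and 6.43 in resistant Colo205 and 6.41 and 6.31 in the HT29 pair. In 206576_s_at the HT29 pair read 6.78 and 6.63 and the Colo205 pair 6.46 and 6.62. The direction of CEACAM1 therefore rests on 1 of 5 probe sets. CEACAM1 transcripts are spliced into long and short forms, and these data do not separate the forms.

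CEACAM7 read low on every array. Its highest reading in any of the 3 probe sets was 5.52, by 211848_s_at in resistant HT29, so the gene did not pass the filter and was left out of the test over kept genes. That probe set read 5.11 in parental HT29 and 5.30 and 5.40 in the Colo205 pair. Probe set 206199_at read 5.33 and 5.45 in HT29 and 4.98 and 4.61 in Colo205, and 206198_s_at lay between 2.98 and 3.36. No CEACAM7 probe set differed by more than 0.41 in either line. An absent transcript and a low one cannot be told apart at these readings.

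Over both lines, limma was used to test status within blocks, each block being a parental line and its own derivative. The mean difference of CEACAM5 was 3.01 ± 0.17 (SE, 2 pairs), with a 95% interval from 2.52 to 3.51, and its unadjusted limma p of 0.000133 was the smallest of the 13651 genes. CEACAM6 had a mean of 2.83 ± 0.81 (SE, 2 pairs), with an interval from 0.44 to 5.21 and an unadjusted limma p of 0.0312. The mean of CEACAM1 was -0.59 ± 0.20 (SE, 2 pairs), with an interval from -1.17 to -0.01 and an unadjusted limma p of 0.0469. After Benjamini-Hochberg adjustment each of the 3 had adjusted p = 0.706 in limma, so none passed the threshold of 0.05. The interval of CEACAM5 is narrow because its 2 pairs gave nearly the same difference and limma draws part of the spread from all genes. That of CEACAM6 is wide because its pairs gave unlike differences.

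Among all genes 0 passed the adjusted threshold (0% of 13651), while 928, or 6.8%, had an unadjusted limma p under 0.05, 2.73% higher and 4.07% lower. The test rests on 1 residual degree of freedom and 2.54 taken from the spread of all genes. Of the 3 CEACAM genes measured past the filter, 2 were at least 2-fold higher in each line, a state of 0.293% of the genes, which are 40 in number. By probe set it was 3 of the 9 past the filter, against 0.207% of 30473. Of those 9 probe sets, 6 were higher in each line by any amount, beside 26.3% of genes, counted by 1 probe set each. An increase of 2-fold or more was met by 3.42% of genes in HT29 and by 0.908% in Colo205, whatever the other line did. The 4 genes were chosen with such results known, so this count is a description. No CEACAM probe set was 2-fold or more lower in either line, where 1.72% of genes in HT29 and 2.51% in Colo205 were.

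**Figure D2:**
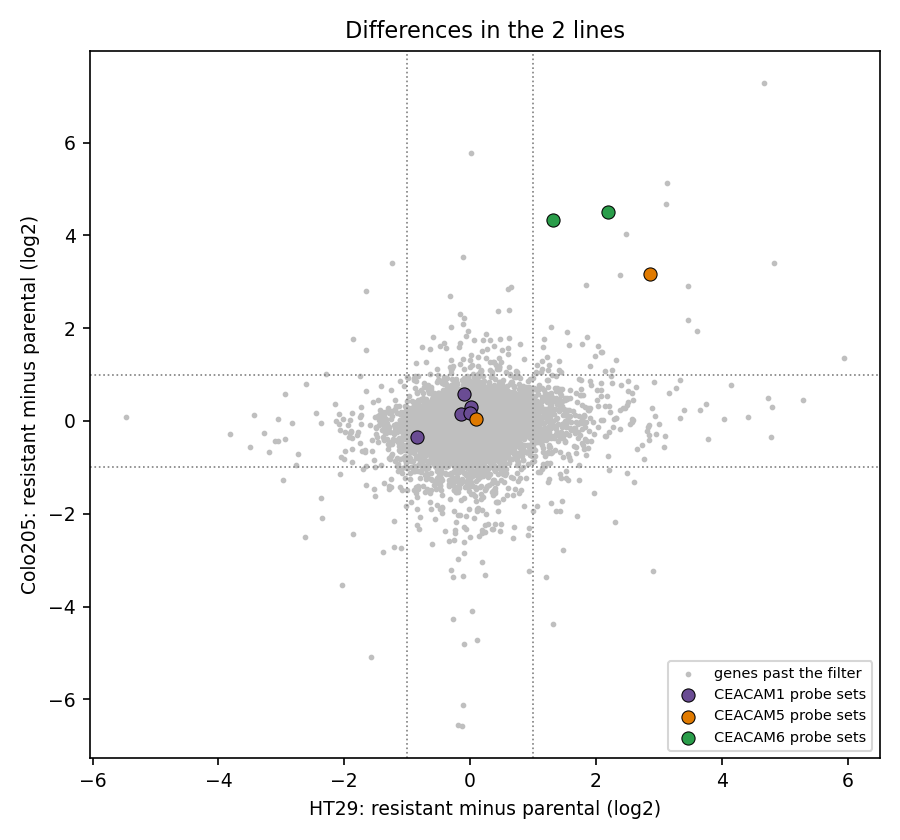
Difference between resistant and parental cells on the log2 scale in HT29 (horizontal) and Colo205 (vertical), with 1 grey point for each of the 13651 genes past the filter and coloured points for the 9 CEACAM probe sets past it. Dotted lines mark 2-fold. Both CEACAM6 probe sets and 1 CEACAM5 probe set are in the upper right sector, and the other 6 points lie within 2-fold of no difference.

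As a measure of scatter between readings of one gene, the differences of probe sets of the same gene had a pooled SD of 0.30 in each line. It was taken over 6615 genes with several probe sets. The CEACAM5 difference of 201884_at was 9.52 times that SD in HT29 and 10.6 times in Colo205. That of CEACAM6 by 211657_at was 4.38 and 14.5 times. The other CEACAM5 probe set, at 0.09 and 0.04, lay many such SDs from 201884_at. For CEACAM5 the pooled SD thus understates the scatter between its probe sets. The CEACAM1 difference of 209498_at was -2.79 times this SD in HT29 and -1.16 times in Colo205. This is no spread between cultures, for which there is no measure within a line.

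The parental lines already differed in these genes. CEACAM6 was higher in parental HT29 than in parental Colo205 by 34.1-fold in 211657_at and 42.5-fold in 203757_s_at, and CEACAM5 by 4.78-fold in 201884_at. Of all genes, 7.08% were 2-fold or more higher in parental HT29, and CEACAM6 held place 30 and CEACAM5 place 250 in that order. Between the resistant derivatives HT29 was again the higher, by 4.22-fold and 8.48-fold in the CEACAM6 probe sets and 3.89-fold in CEACAM5. Here the background was 9.24% of genes. CEACAM1 was 1.72-fold higher in parental HT29 and 1.22-fold higher in resistant HT29 by 209498_at. These contrasts use the same arrays as the resistant-parental ones and add no independent evidence.

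Ordered by level, CEACAM5 ran from parental Colo205 (6.84) through parental HT29 (9.10) and resistant Colo205 (10.00) to resistant HT29 (11.96). The closest neighbours in that order, parental HT29 and resistant Colo205, were 0.91 apart. CEACAM6 by 211657_at ran from parental Colo205 (7.37) through resistant Colo205 (11.70) and parental HT29 (12.46) to resistant HT29 (13.78). The middle arrays of CEACAM5 and CEACAM6 thus come in opposite order.

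On chromosome 19 the genes around CEACAM5 and CEACAM6 showed no comparable difference. In RefSeq order CEACAM7, CEACAM5, CEACAM6 and CEACAM3 follow each other among genes with a probe set of their own. CEACAM3, a granulocyte receptor that takes up bacteria, was at 0.34 in HT29 and -0.04 in Colo205. CEACAM4, on the other side of CEACAM7, was at -0.03 and -0.02, and CEACAM21 at -0.02 and -0.08. The ribosomal protein gene RPS19 was at -0.06 and -0.13 and the B cell receptor gene CD79A at 0.06 and -0.18. Most of these readings were low: CEACAM21 read 5.61 to 5.74, CEACAM4 6.01 to 6.11, CEACAM3 6.67 to 7.11 and CD79A 6.68 to 7.03. RPS19 read 14.48 to 14.68, near the table's highest value of 14.88. Whether a difference would show at such levels was not tested, so these genes say little about the region.

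Taking the 5 nearest genes on each side of each of the 4, 20 other genes had a probe set and 12 passed the filter. Of these 12, 0 were 2-fold or more different in HT29 or in Colo205, beside 702 and 467 of all 13651 genes. Such differences are rare over all genes, so a count of 0 among 12 says little. The ranges ran from -0.36 to 0.44 and from -0.71 to 0.55. The lowest in both lines was CNFN, which encodes cornifelin of the cornified envelope, and the highest in both was PSG6. Over the 17 genes past the filter that lie between CEACAM7 and CEACAM1, the medians were -0.04 and -0.13, beside medians of -0.01 and -0.02 over all genes. Copy number itself was not measured.

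**Figure D3:**
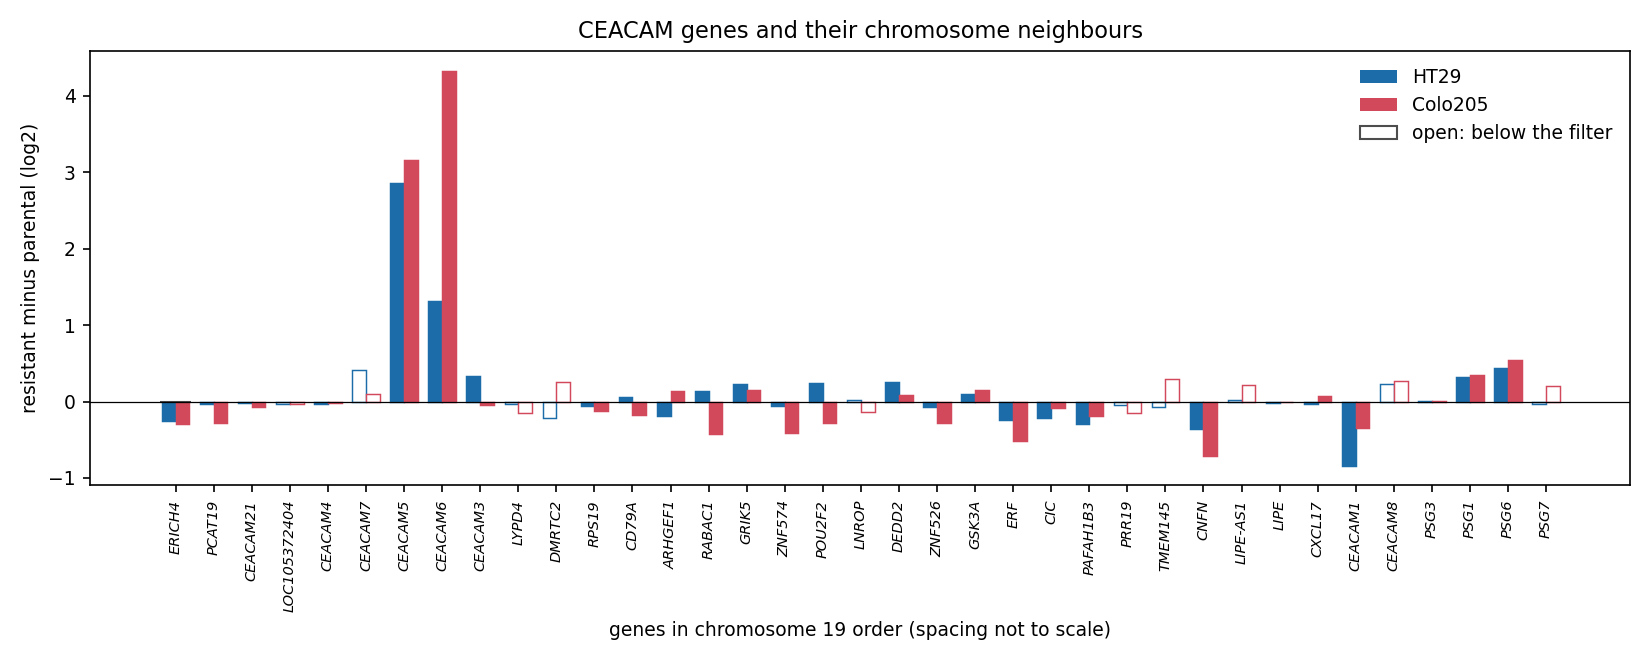
Difference between resistant and parental cells on the log2 scale (vertical) for the CEACAM genes, the genes between them and their neighbours in chromosome 19 order, with HT29 in blue and Colo205 in red, 1 probe set a gene. Open bars are genes below the filter. CEACAM5 and CEACAM6, side by side, are the only genes shown that differ by 1 or more in either line, and CEACAM1 is at -0.84 and -0.35.

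The remaining members of the family were within 2-fold or below the filter. On the array 5 other CEACAM genes had probe sets. CEACAM8, a granulocyte marker, read between 3.41 and 3.87 on the 4 arrays, below the filter throughout. CEACAM19 read between 6.91 and 6.96. The brightest CEACAM3 probe set, 208052_x_at, ran from 6.67 in parental HT29 to 7.11 in parental Colo205. Another, 210789_x_at, was higher in both resistant lines, by 0.33 and 0.29, and shares its cluster with genes of similar sequence. Readings of similar members may share signal, and how much these do was not tested.

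The pregnancy-specific glycoprotein genes (PSG), the placental branch of the family, were among 14 relatives on the array, of which 8 passed the filter. Their median differences with the CEACAM relatives were 0.09 in HT29 and -0.03 in Colo205. Of the 8, 0 were 2-fold different in either line, beside 702 and 467 of all 13651 genes. PSG6 had the largest mean, 0.49, with 0.44 in HT29 and 0.55 in Colo205, an unadjusted limma p of 0.0371 and an adjusted p of 0.706. PSG1 was at 0.32 and 0.34. PSG5 was at 0.00 and 0.39.

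The genes whose 4-array profile lay nearest to that of CEACAM5 were REG4, a secreted lectin, GPAT3, which starts triglyceride synthesis, and MAOB, a monoamine oxidase. Likeness was the root mean square distance, over the 4 arrays, between log2 values centred on each gene's own mean. The distances were 0.17, 0.37 and 0.45. REG4 was at 8.06 in parental HT29, 10.45 in its derivative, 5.61 in parental Colo205 and 8.76 in its derivative. CEACAM6 was the gene at place 33 from CEACAM5, at a distance of 1.01, and CEACAM5 was at place 6 from CEACAM6.

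Nearest to CEACAM6 itself were SLC41A2, a magnesium transporter gene, C6orf141 and again GPAT3, at 0.82, 0.86 and 0.86. SLC41A2 was higher by 0.44 in resistant HT29 and by 2.38 in resistant Colo205, C6orf141 by 1.54 and 1.92 and GPAT3 by 1.85 and 2.93. Nearest to CEACAM1, by 209498_at, were ZNF33A, a zinc finger gene, EPHB4, an ephrin receptor, and DDX11L2, at 0.04, 0.05 and 0.06. The distance is not scaled to a gene's range, which was 1.13 for CEACAM1, 5.12 for CEACAM5 and 6.41 for CEACAM6. Distances of different members can therefore not be compared as degrees of likeness. With 4 arrays many genes share a profile, and likeness says nothing of a common control.

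**Figure D4:**
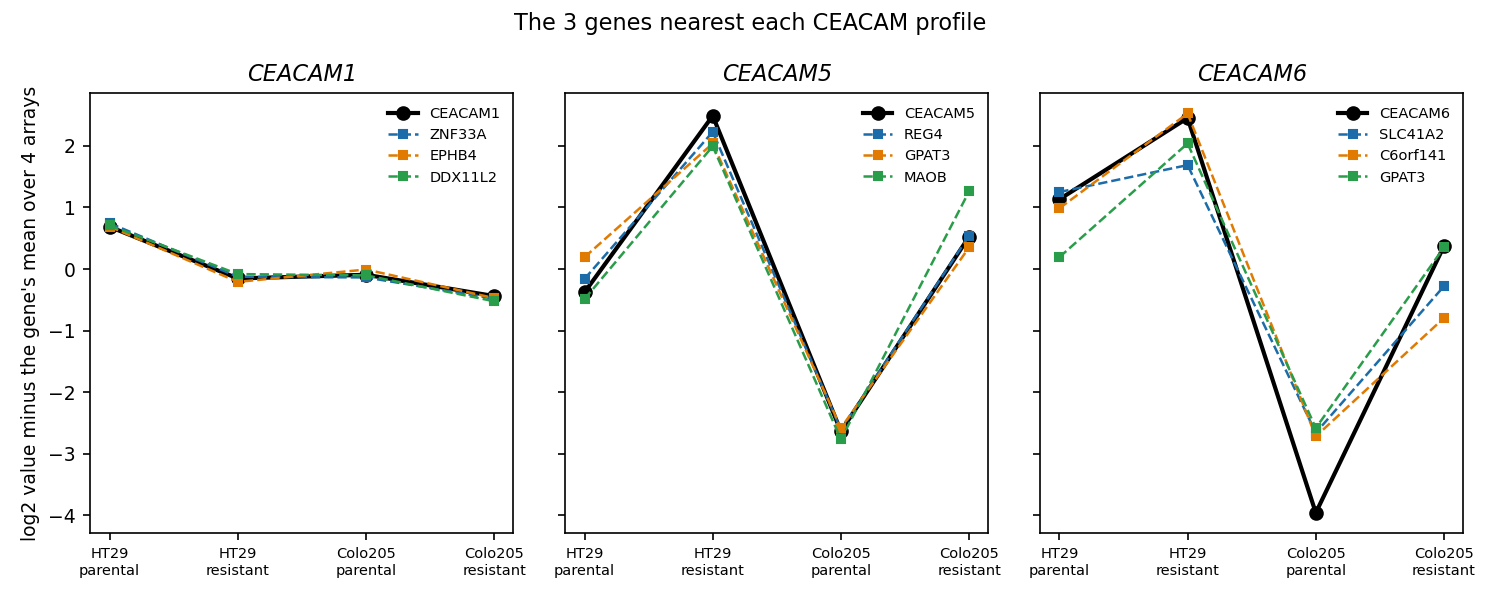
Log2 values minus the gene's mean over the 4 arrays (vertical) for CEACAM1, CEACAM5 and CEACAM6 (black) and the 3 genes nearest to each by root mean square distance (dashed). REG4 follows CEACAM5 at a distance of 0.17, and the nearest to CEACAM6 is 0.82 away. Distances are not scaled to the range of each member.

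Genes that work with CEACAM1 were measured through 15 signalling partners and splicing regulators, all past the filter. In both lines 7 of the 15 were higher and 2 lower, beside 26.3% and 30.1% of all genes. The median difference was 0.25 for HT29 and 0.18 for Colo205, beside -0.01 and -0.02 over all genes. EGFR, the epidermal growth factor receptor, was the 1 that was 2-fold or more higher in each line, at 2.26 and 1.09. The SRC family kinase gene LYN was at 1.40 and 0.41 and S100A10, the annexin A2 partner, at 0.30 and 0.62. PTPN11, which encodes SHP-2, was at -0.03 and -0.35, the splicing factor gene HNRNPA1 at -0.15 and -0.72 and the insulin receptor gene INSR at 0.34 and -0.73. None of the 15 passed the adjusted limma threshold, and 2 had an unadjusted p under 0.05, both higher, beside 2.73% of all genes.

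The GPI anchor that CEACAM5, CEACAM6 and CEACAM7 need is made by the PIG enzymes and attached in the endoplasmic reticulum. Of 27 genes listed for this anchor and past the filter, 3 were higher and 13 lower in both lines, beside 26.3% and 30.1% of all genes. The 27 include GPLD1, at -0.10 and -0.06, which is not a gene of synthesis or attachment. Their median was -0.24 for HT29 and -0.09 for Colo205. DPM3, a subunit of the enzyme that supplies the mannose donor, was at -0.86 and -0.77, with an unadjusted limma p of 0.00799. PIGL was at -1.06 and -0.30 and PGAP3, which remodels the anchor's lipid, at -0.91 and -0.31. PIGX was at 0.66 and 0.07, PIGH at 0.16 and 0.29 and PIGT at 0.40 and 0.00. In either line 0 of the 27 were 2-fold or more higher, beside 3.42% of all genes in HT29 and 0.908% in Colo205. An unadjusted limma p under 0.05 was met by 3, all lower, beside 4.07% of all genes.

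Of 16 transcription factor genes linked to CEACAM promoters or to gut-specific expression, 6 were higher and 4 lower in both lines, beside the same 26.3% and 30.1%, with medians of 0.09 in each. The intestinal homeobox gene CDX2 was at 1.35 in HT29, from a parental reading of 5.17, and at 0.45 in Colo205, and CDX1 was at 0.40 and 0.91. KLF4, a factor of differentiated gut epithelium, was at 1.09 and 0.34. KLF5 was at -0.84 and 0.14, SOX9 at -0.29 and -0.26 and TFAP2A at -0.07 and -0.86. CDX1 and CDX2 had unadjusted limma p-values of 0.0366 and 0.0398, each with adjusted p = 0.706. They were the 2 of the 16 with an unadjusted limma p under 0.05, both higher, beside 2.73% of all genes. Of the USF factors, which bind the core CACGTG, USF1 was at 0.07 and 0.12 and USF2 at -0.18 and 0.06.

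Genes of mature colonocytes, on which CEACAM5 and CEACAM7 are normally found, did not share one direction. Of 14 past the filter, 3 were higher and 4 lower in both lines, beside 26.3% and 30.1% of all genes, and the median was 0.04 for HT29 and -0.15 for Colo205. KRT20, a keratin of the surface epithelium, was at 1.58 in HT29 and -0.84 in Colo205, where its readings of 4.79 and 3.95 were below the filter value. The brush border cadherin genes CDHR5 and CDHR2 were at 0.77 and 0.20 and at -0.23 and 0.90. The carbonic anhydrase gene CA2 was at -0.37 and -0.16, MYO1A at -0.23 and -0.24 and the guanylin gene GUCA2A at -0.09 and -0.55.

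Among 23 other epithelial surface adhesion molecules 7 were higher and 6 lower in both lines, with medians of 0.38 and -0.07, where all genes had 26.3% and 30.1%. CDH17, the liver-intestine cadherin, was the 1 gene 2-fold or more higher in each, at 5.94 from a parental reading of 5.30 in HT29 and at 1.37 in Colo205. The galectin gene LGALS3 was at 1.74 and 0.56 and the desmosomal cadherin gene DSC2 at 1.15 and 0.43. Lower in both were the mucin gene MUC1, at -0.44 and -0.58, CLDN3, at -0.94 and -0.08, and PKP2, at -0.27 and -0.38. In HT29 7 of the 23 were 2-fold or more higher and in Colo205 1, beside 3.42% and 0.908% of all genes, without a test of that gap. In none of the 10 lists did a gene pass the adjusted limma threshold.

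All 4 arrays carried the marks of colonic epithelium. EPCAM, a surface protein of epithelial cells, read between 13.75 and 13.96. Of the 10 identity markers 9 and 10 were above the filter value in parental and resistant HT29 and 8 and 9 in parental and resistant Colo205, with KRT20 below it in both Colo205 arrays and CDX2 below it in both parents. Their summed linear level ran from 68326 in parental Colo205 to 111707 in resistant HT29. VIL1 was at 0.03 and -0.45, LGALS4 at 0.42 and -0.30 and KRT19 at 1.11 and 0.28.

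Granulocytes also carry CEACAM1, CEACAM6 and CEACAM8. Of 10 granulocyte markers 8 were below the filter value on all arrays, the myeloperoxidase gene MPO, ELANE and S100A8 among them, and CSF3R and ITGAM read between 5.98 and 6.47. Their summed linear level was 299 in both parents, 331 in resistant HT29 and 330 in resistant Colo205. Of 3 other leukocyte markers on the array PTPRC, which all leukocytes carry, read at most 4.02, while CD14 of monocytes read 6.74 in parental HT29 and at most 5.96 on the other arrays. Of 6 fibroblast markers 4 passed the filter. COL1A1 read between 7.23 and 7.45, THY1 between 6.28 and 6.58 and DCN between 5.73 and 5.97, whereas COL3A1 read at most 4.57. Their differences were -0.10 and 0.14 for COL1A1, -0.30 and -0.11 for THY1, 0.24 and -0.01 for DCN and 1.65 and -0.54 for LUM. The summed linear level of the 6 was 425 and 478 in parental and resistant HT29 and 380 and 391 in the Colo205 arrays. The part of these markers in the CEACAM differences was not tested.

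Control readings on the arrays followed the groups. Probe sets for spiked poly-A transcripts, 24 in number, were all lower on the resistant array in each line, at a median of -0.43 for HT29 and -0.72 for Colo205, and 15 of the 18 hybridisation controls were lower in each line, with medians of -0.08 and -0.05. The difference between 3′ and 5′ probe sets ran from 0.44 to 0.66 for GAPDH and from 2.40 to 3.13 for ACTB, and was not ordered by status. The part of these values in the CEACAM differences was not tested. Centred on each array's median, CEACAM5 had a mean difference of 2.98 and CEACAM6 of 2.79. The array medians lay within 0.05 of each other, so centring could move these means only slightly and is no check on the spike readings.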

How the data were processed

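Expression was measured on 4 Affymetrix arrays of biotin-labelled cRNA from total RNA. The deposited table holds log2 values that the authors made per probe set, 54675 of them. That they are log2 is taken from their span of 2.51 to 14.88. MAS5 and RMA are named in the submitters' processing notes, with no role or version. Array medians lay within 0.05 of each other, and the number of arrays limits the precision.

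Probe sets were named by the platform annotation. The fit over genes used probe sets that name exactly 1 gene. For each gene the probe set of highest mean value stood in, and the gene was kept if its highest value reached 5.73, the median of the table, which kept 13651 of 19775 genes. Status was tested over all kept genes by limma 3.58.1 in R 4.3.3, with the line as a block and Benjamini-Hochberg adjustment. The arrays are paired because each derivative comes from its own parental line. The fit was tested on simulated data. Counts past 2-fold within a line, with 1 array on each side, have no test. Alternatives were scaling, probe set choice, filter, block and trend. The genes named from lists were the 3 highest and 3 lowest by mean and any 2-fold different one way in both lines. MPO, ELANE, S100A8, PTPRC and COL3A1 were named besides, as defining markers of other cell types, with their values seen. USF1 and USF2 were added likewise, as factors tied to the E-box. The members and lists were chosen with earlier results of these data known. Promoters were aligned globally with Biopython.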

Additional observations from a re-analysis of the deposited data

Results flagged for a closer look

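In 2 of the 5 CEACAM1 probe sets the lines differed in opposite directions, which drew attention to them. Over all genes 26.3% were higher and 30.1% lower in both lines, so opposite directions were common and not particular to CEACAM1. Probe set 206576_s_at was at -0.14 in HT29 and 0.16 in Colo205, a gap of 0.30 between the lines, and 211889_x_at was at -0.10 and 0.58, a gap of 0.68. The gap between the lines was not tested, since each line has 1 array for each status.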

How the results depend on the processing

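The mean differences of CEACAM5, CEACAM6 and CEACAM1 kept their direction under each alternative chosen at the outset, and in none of them did any pass the adjusted limma threshold, with adjusted p from 0.674 to 1.0. The number of genes past it was 0 throughout, with 131 to 1320 at an unadjusted p under 0.05. Without the replicate block, which here pairs the lines, the means of 3.01, 2.83 and -0.59 stayed as they were with adjusted p = 1.0 in limma, and the block changed no call. Leaving out 1 line at a time gave values from 2.87 to 3.16 for CEACAM5, from 1.32 to 4.33 for CEACAM6 and from -0.84 to -0.35 for CEACAM1. So the CEACAM6 mean of 2.83 is 1.32 without Colo205 and 4.33 without HT29.

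With the mean over a gene's probe sets, CEACAM5 was at 1.48 in HT29, 1.60 in Colo205 and -1.18 between the parents (Colo205 minus HT29). CEACAM6 was then at 1.75 in HT29, and CEACAM1 at -0.21 in HT29, at 0.18 in Colo205, where its direction turned, and -0.02 over both lines. Genes 2-fold or more lower in resistant HT29 numbered 145 in place of 235. In a fit over every probe set, added after seeing the data, the other CEACAM1 probe sets had means of 0.0078, 0.093, 0.16 and 0.24, opposite to 209498_at, the second CEACAM5 probe set 0.067 and the second CEACAM6 probe set 3.35. The cause was not tested. The unadjusted limma p of CEACAM1, 0.0469 as reported, was 0.92 with the mean over probe sets, 0.185 without the block, 0.0597 after quantile normalization and 0.0536 with a mean-variance trend. For CEACAM5 and CEACAM6 it was 0.0673 and 0.258 without the block. CEACAM7 did not pass the filter on the deposited values, and without a filter its mean was 0.25 with adjusted p = 0.704 in limma.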
